A study of Mus musculus with 2 samples.

Results

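Protamines and transition proteins are the small basic proteins that replace the histones when a spermatid condenses its nucleus. Transition proteins enter the chromatin first and are themselves replaced by protamines, and the messenger RNAs of both are made well before they are translated, being stored in the cytoplasm of the spermatid. The mouse has transition protein genes Tnp1 and Tnp2 and protamine genes Prm1, Prm2 and Prm3. Prm1 and Prm2 encode the protamines of the sperm nucleus, of which protamine 2 is made as a precursor that is cut, whereas Prm3 encodes an acidic protein that is found in the cytoplasm. The 5 members were chosen by symbol from the 51868 rows of the count matrix, of which 50686 are genes and the rest are repeat sequences. Each symbol matched a single row, and all 2552 cells of both mice were used.

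The cells came from testis tissue of 2 wild-type C57Bl/6J Crl mice that were 8 weeks old, a piece of which was digested and strained in a way meant to leave out somatic cells, with no treatment and no comparison group, and each mouse gave 1 droplet library. Mouse 1 contributed 1237 cells with 27450497 unique molecular identifiers (UMIs, each standing for 1 captured mRNA molecule), and mouse 2 contributed 1315 cells with 30302332 UMIs. The median cell held 17871 UMIs in mouse 1 and 19184 in mouse 2, and the shallowest of all cells held 7114. No cell barcode occurred in both libraries. The reads of mouse 2 were downsampled by the authors to the depth of mouse 1, so a level is given below as CPM, the UMIs of a gene per 1000000 UMIs of the same cells. UMIs mark the 3′ end of a molecule, so levels of different genes were compared without a correction for length.

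The genes other than Tnp1 lie together on chromosome 16 within 17904 bases and all 5 are read from the minus strand (GRCm38, GENCODE annotation). Tnp2 occupies chr16:10787936-10788660, Prm3 chr16:10790505-10790914, Prm2 chr16:10791380-10796134 and Prm1 chr16:10796326-10805839, whereas Tnp1 is at chr1:73015074-73015909. Prm2 and Prm1 each have 2 annotated transcripts. Those with the shorter span on the chromosome have 2 exons each and begin at 10792105 and 10796886. Prm3 is a single exon of 410 bases. Because all 5 mRNAs rose from round to condensing spermatids, as described below, the 150 bases before each RefSeq start site are shown (GRCm38.p6), 5′ to 3′ on the strand of the gene, the last base being next to the start. Capitals mark the letters TGANNTCA, a loose form of the cyclic AMP response element that CREM, an activator of genes in spermatids, is known to bind, and the letters TATA where they begin 20 to 40 bases before the start.
Tnp1, chr1:73015900-73016049: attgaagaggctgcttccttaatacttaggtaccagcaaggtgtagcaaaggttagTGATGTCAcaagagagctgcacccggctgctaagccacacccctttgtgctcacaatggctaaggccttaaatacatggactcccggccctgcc
Tnp2, chr16:10788656-10788805: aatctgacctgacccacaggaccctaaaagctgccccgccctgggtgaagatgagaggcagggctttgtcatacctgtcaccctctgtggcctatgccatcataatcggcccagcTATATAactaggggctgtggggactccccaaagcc
Prm3, chr16:10790915-10791064: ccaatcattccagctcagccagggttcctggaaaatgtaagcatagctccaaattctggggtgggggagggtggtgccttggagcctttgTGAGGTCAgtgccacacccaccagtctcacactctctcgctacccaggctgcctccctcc
Prm2, chr16:10792106-10792255: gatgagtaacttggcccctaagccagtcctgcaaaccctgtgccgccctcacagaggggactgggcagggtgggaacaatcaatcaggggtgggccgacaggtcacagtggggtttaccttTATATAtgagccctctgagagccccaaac
Prm1, chr16:10796824-10796973: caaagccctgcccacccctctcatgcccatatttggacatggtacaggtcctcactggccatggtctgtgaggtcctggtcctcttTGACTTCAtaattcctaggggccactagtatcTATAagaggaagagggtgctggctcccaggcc

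Over 250 bases before the start, on both strands, TGANNTCA occurred in 3 of the 5 members, Tnp1, Prm3 and Prm1, and in 11.9% of all 32851 promoters in the table. The complete element TGACGTCA occurred in no member and in 1.55% of promoters, and every TGACGTCA is also a TGANNTCA. A TATA in the window occurred in Tnp2, Prm2 and Prm1 and in 5.81% of promoters. The TGANNTCA of Prm1 began 64 bases before the start, that of Prm3 60 bases and that of Tnp1 94 bases. These starts are those of RefSeq. The RefSeq start of Prm1 lies inside the GENCODE transcript of shorter span, which begins at 10796886. The TATA marked for Prm1 thus lies within that transcript. The RefSeq starts of Tnp1 and Tnp2 also lie inside their GENCODE transcripts. Prm3 and Tnp1 were without a TATA in the window, as were most of all promoters. The letters were chosen after the sequences had been seen, and a match or its absence is a description of the sequence only. No link between these letters and the levels below was tested.

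To place the members along sperm development, the cells were grouped by K-means into 9 clusters with the members and a list of their known regulators left out, and germ cells were ordered with the same genes left out. The 164 early spermatocyte-like cells raised 8 of 12 markers of that class, the 531 pachytene or later spermatocyte-like cells 9 of 12 and the 438 round spermatid-like cells 10 of 12. Between the last 2 of these stood a cluster of 703 cells that raised only 3 of 12 round spermatid markers and was led by genes of the Ssxb family. It was left unnamed and is called the Ssxb cluster. Elongating or condensing spermatid-like cells formed 2 clusters, which each raised 10 of 10 markers of their class, and the first of them, with 213 cells, also raised 7 of 12 round spermatid markers. The second, with 485 cells, was shallower, at a median of 11628 UMIs, than the first, at 22306. They are called the first and the second condensing cluster. The 18 remaining cells were Sertoli-like (7), spermatogonium-like (6) and Leydig-like (5). Markers of other cell types were low in these clusters, with summed haemoglobin markers at 110 CPM in the pachytene or later cluster and 92.9 CPM in the second condensing cluster, and summed Sertoli markers at 85.1 CPM in the early spermatocyte-like cells. Their part in the results was not tested.

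The members were among the most abundant mRNAs of the testis. Together they took 3.42% of all UMIs in mouse 1 and 2.58% in mouse 2. Prm1 had more UMIs than any other row of the matrix in both mice, 439787 in mouse 1 and 326093 in mouse 2. Tnp2 ranked 4 and 6, Prm2 ranked 6 and 5, and Tnp1 ranked 7 and 8, while Prm3 ranked 88 and 116. Each cell held at least 1 UMI of Prm1, Prm2, Tnp1 and Tnp2, and Prm3 was seen in 96.8% of cells of mouse 1 and 95.4% of mouse 2.

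That presence extended to spermatocytes and somatic cells. All 18 Sertoli-like, Leydig-like and spermatogonium-like cells, in which these genes are not known to be active, held at least 15 Prm1 UMIs. Their medians lay between 9856 and 12039 UMIs per cell. The pachytene or later cells, with a median of 20769 UMIs, held a median of 42 Prm1 UMIs in mouse 1 and 33 in mouse 2. Prm3, Tnp1 and Tnp2 stood in nearly the same ratio to Prm1 in these cells as in the spermatids that are richest in them. For each Prm1 UMI, the 18 cells held 0.0558 Prm3, 0.319 Tnp1 and 0.406 Tnp2 UMIs, and the second condensing cluster held 0.0557 ± 0.0041, 0.319 ± 0.019 and 0.397 ± 0.026 (mean ± SD, n = 2 mice). The pachytene or later cells held 0.0637 Prm3, 0.322 Tnp1 and 0.391 Tnp2 UMIs. Prm2 was at 0.621 in the 18 cells, where 1 cell held 99 of its 278 UMIs, and at 0.419 ± 0.115 in the second condensing cluster. The level in spermatocytes is treated as background and was not subtracted from the levels, ratios or tests below. No expression is read from it. The part of free RNA in it was not tested.

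Levels of the members other than Prm3 rose most between round and condensing spermatids. In the pachytene or later cells Prm1 stood at 1443 CPM in mouse 1 and 1075 CPM in mouse 2. It stood at 2586 and 1792 CPM in the Ssxb cluster and at 3425 and 2097 CPM in round spermatid-like cells. In the first condensing cluster it reached 37613 and 29580 CPM and in the second 92606 and 68570 CPM. The pachytene or later cells overlapped with the early spermatocyte-like cells (2969 and 1380 CPM), and the Ssxb cluster overlapped with the early and the round cells. Both condensing clusters lay above all of these and apart from each other. Of the 3241 Prm1 UMIs of the early cells of mouse 1, 1 cell held 1512, where the median cell held 29. The 2969 CPM of that cluster thus rests in large part on 1 cell. In round cells of mouse 1 the median cell had 0.233% of its UMIs on Prm1 and the highest 4.35%. High cells thus also enter the 3425 CPM. For Prm3 in round cells counting error was small beside the difference between the mice. The exact 95% Poisson interval in mouse 1 was 1595 to 1672 CPM around 1633, and mouse 2 had 1396 CPM. This did not hold for every sum. In the Ssxb cluster Prm2 had 1046 CPM (1021 to 1072) in mouse 1 and 1052 CPM (1030 to 1074) in mouse 2.

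**Figure D1:**
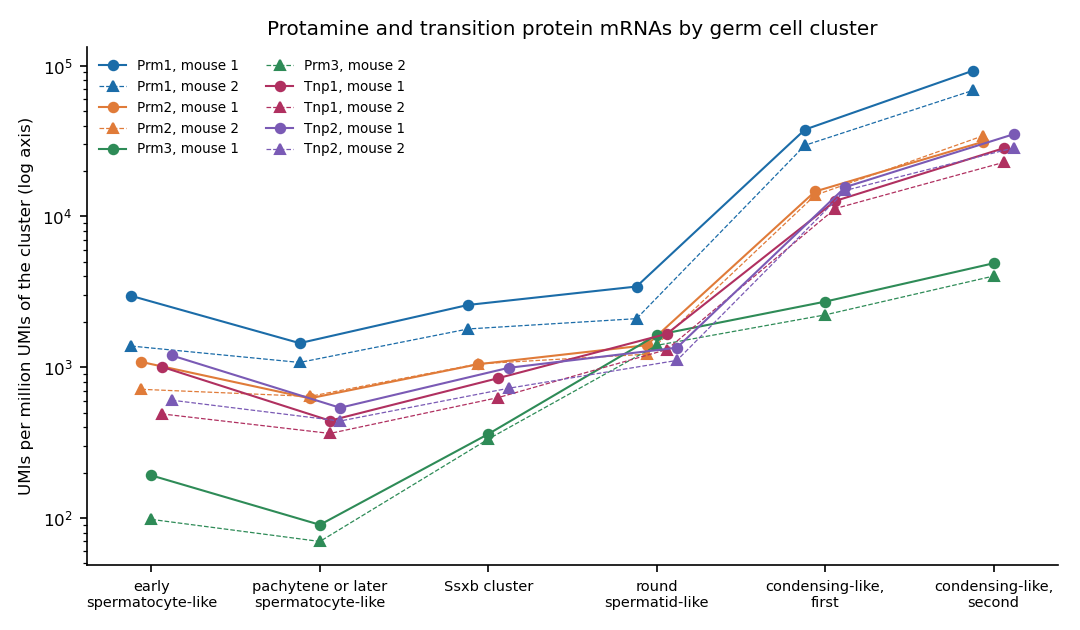
CPM (log axis) of each member in the 6 germ cell clusters, in order of median position, with circles and solid lines for mouse 1 and triangles and dashed lines for mouse 2. Prm3 climbs from 80.0 CPM in pachytene or later cells to 1514 CPM in round cells, where the other members lie between 1109 and 3425 CPM, and Prm1 ends highest at 92606 and 68570 CPM.

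Prm2, the second protamine of the sperm nucleus, went from 621 CPM in mouse 1 and 640 CPM in mouse 2 in the pachytene or later cells to 31252 and 34273 CPM in the second condensing cluster. Tnp2 went from 538 and 439 CPM to 35062 and 28441 CPM. Tnp1 went from 442 and 364 CPM to 28298 and 22800 CPM. These 3 ended at similar levels, below Prm1 in both mice. The rank order of the 3 differed between the mice, with Prm2 at rank 2 among all rows of the matrix in mouse 2 and at rank 3 in mouse 1.

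Prm3 followed another course. It stood at 90.1 and 69.9 CPM in the pachytene or later cells, at 360 and 334 CPM in the Ssxb cluster, at 1633 and 1396 CPM in the round cells, at 2720 and 2222 CPM in the first condensing cluster and at 4885 and 4019 CPM in the second. Each of these steps separated the mice's values without overlap. In round cells Prm3 lay above Prm2, which had 1398 and 1219 CPM, and below Prm1 in both mice, while in the second condensing cluster it was the lowest of the 5.

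In the second condensing cluster the 5 mRNAs together took 19.2% of all UMIs in mouse 1 and 15.8% in mouse 2, or 17.5% ± 2.40 (SD, n = 2). The lowest, median and highest cell had 8.77%, 19.3% and 26.4% in mouse 1 and 4.33%, 15.3% and 24.3% in mouse 2. In the first condensing cluster the 5 took 8.32% and 7.17%. In pachytene or later cells they took 0.313% and 0.259%.

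The steps between neighbouring clusters were tested over 12 sums, 1 for each mouse and cluster, with edgeR's quasi-likelihood test on 14113 genes. The spread it measures is that between 2 mice, and the clusters were drawn from the same cells, so many genes differ at every step. From round to first condensing cells all 5 members rose, against 23.6% of all genes tested that rose and 21.9% that fell. The log2 fold change was 4.17 ± 0.26 (SE) for Tnp2, 4.13 ± 0.32 for Prm1, 3.97 ± 0.21 for Prm2 and 3.54 ± 0.26 for Tnp1, with Benjamini-Hochberg adjusted p from 3.61e-13 to 2.35e-10. It was 1.23 ± 0.20 for Prm3, with an adjusted p of 1.56e-05. From the first to the second condensing cluster all 5 rose again, against 16% of genes, by 1.43 for Prm3 to 1.84 for Prm1 on the log2 scale, and the largest edgeR adjusted p was 2.15e-05. Of all genes 22.9% fell at this step. These fold changes are on the scale of edgeR's TMM factors. On total UMIs the median gene fell by 0.59 from round to first condensing cells and by 0.58 from the first to the second, beside -0.06 and -0.01 on the TMM scale, and all 5 members rose at both steps on either scale. Within each mouse, on CPM, the rise of Prm3 was 0.74 and 0.67 at the first of these steps and 0.84 and 0.86 at the second, and that of Prm1 was 3.46 and 3.82 and then 1.30 and 1.21.

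From the Ssxb cluster to round cells 4 of 5 members rose, against 26% of genes that rose and 20.4% that fell. Prm3 rose by 2.38 ± 0.21 (SE) on the log2 scale, with an edgeR adjusted p of 1.88e-09, Tnp1 by 1.27 ± 0.24 with an adjusted p of 9.84e-05, Tnp2 by 0.78 ± 0.23 with 0.00787 and Prm2 by 0.58 ± 0.19 with 0.0136. Prm1 had 0.59 ± 0.29 with an adjusted p of 0.0947, but 0.00149 where the mouse entered as a block and 0.0305 without the cells called as doublets. On total UMIs without TMM the edgeR adjusted p was 0.101 for Prm2 and 0.0637 for Tnp2. Within each mouse, on CPM, the log2 difference was 0.42 and 0.21 for Prm2, 0.44 and 0.61 for Tnp2 and 2.18 and 2.06 for Prm3. The median share of Prm2 per cell went only from 0.0886% to 0.0980% of UMIs in mouse 1 and from 0.0927% to 0.109% in mouse 2. Cells with high counts thus enter the rise of Prm2 in CPM. From pachytene or later cells to the Ssxb cluster all 5 rose, against 31.7% of genes that rose and 31.5% that fell, Prm3 by 2.16 ± 0.21 with an adjusted p of 4.50e-09 and the other 4 by 0.79 to 0.92. For these 4 the median UMI number per cell moved little beside that rise in share: Prm1 had a median of 42 UMIs in pachytene or later cells and 39 in the Ssxb cluster in mouse 1, and 33 in both in mouse 2. The mean depth of the 2 clusters was 33836 and 20682 UMIs per cell, and its part in the result was not tested. The median of Prm3 went from 3 to 5 UMIs in mouse 1 and from 2 to 6 in mouse 2. From early to pachytene or later cells none rose and 2 of 5 fell, against 25.6% of genes that rose and 24.6% that fell, Tnp1 by 0.59 and Tnp2 by 0.58 on the log2 scale with adjusted p of 0.0441 and 0.0444. Without the 25 cells called as doublets their log2 differences were 0.013 and 0.046, with edgeR adjusted p of 0.966 and 0.852. Within mouse 2 alone, on CPM, they were -0.43 and -0.46, and within mouse 1 -1.19 and -1.15. With the mouse as a block Prm1 and Prm3 fell at this step as well, with edgeR adjusted p of 0.0183 and 0.00422. Both clusters hold the level treated as background, so no change in expression is read from this step.

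The ratios between members separated Prm3 and Tnp1 from the rest in round spermatids. For each Prm1 UMI the round cells of mouse 1 held 0.477 Prm3 UMIs and those of mouse 2 held 0.666, while the pachytene or later cells held 0.0625 and 0.0650. The Ssxb cluster was between these at 0.139 and 0.186. Tnp1 reached 0.486 and 0.624 in round cells and was at 0.306 and 0.338 in pachytene or later cells. Both ratios were higher in the round cells of either mouse than in any other germ cell cluster of either mouse. The ratio of Tnp2 to Tnp1 was 0.809 and 0.847 in round cells and between 1.15 and 1.32 in the 5 other clusters. The ratio of Prm2 to Prm1 was 0.408 and 0.581 in round cells and 0.405 and 0.587 in the Ssxb cluster. In pachytene or later cells it was 0.431 and 0.595, so in each mouse it hardly changed over these clusters. The mean levels of Prm1 and Prm2 in round cells were 2.19 and 2.07 times those in pachytene or later cells. Background thus enters the ratio in round cells. With 2 mice against 2, an exact permutation test of such a ratio cannot give a p below 0.333, so none was run.

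**Figure D2:**
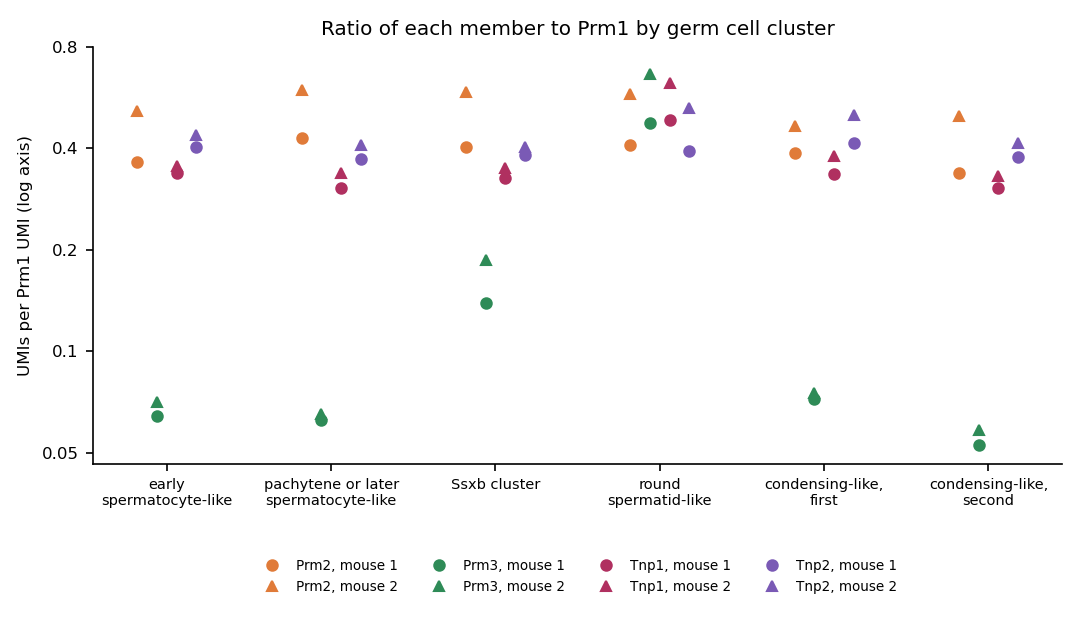
UMIs of Prm2, Prm3, Tnp1 and Tnp2 per Prm1 UMI (log axis) in the 6 germ cell clusters, with circles for mouse 1 and triangles for mouse 2. Prm3 stands at 0.0625 and 0.0650 in pachytene or later cells and at 0.477 and 0.666 in round cells, and Prm2 is higher in mouse 2 in every cluster.

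Single cells showed the same order, relative to the background of each member. With each cell thinned to 5000 UMIs, a limit was set for each member at the 99th percentile of the 695 early and pachytene or later cells, which came to 4 UMIs for Prm3, 11.2 for Tnp1, 13.1 for Tnp2, 14 for Prm2 and 31.2 for Prm1. Of round cells, 147 of 181 in mouse 1 and 196 of 257 in mouse 2 were above the limit for Prm3, or 81.2% (exact 95% binomial interval 74.8 to 86.6) and 76.3% (70.6 to 81.3). For Tnp1 the share was 14.9% and 8.17%, for Prm1 6.63% and 1.95%, for Prm2 6.63% and 3.5% and for Tnp2 5.52% and 2.72%. Prm3 was the only member above its limit in 118 round cells of mouse 1 and 172 of mouse 2. The limits follow the background, so an equal gain in UMIs passes that of Prm3 more readily than that of Prm1. From pachytene or later to round cells of mouse 1 the mean thinned count went from 0.643 to 7.82 for Prm3 and from 9.78 to 17.6 for Prm1. In mouse 2 it went from 0.5 to 7.06 for Prm3 and from 7.11 to 11.1 for Prm1. The median thinned count went from 0 to 7 for Prm3 in both mice. For Prm1 it went from 9 to 12 in mouse 1 and from 6 to 10 in mouse 2, so cells with high counts enter the mean of Prm1. All 27 round cells of mouse 1 that were above the limit for Tnp1, and 20 of 21 in mouse 2, were also above it for Prm3. In the Ssxb cluster 8.52% and 5.44% of cells were above the limit for Prm3 and at most 1.58% for any other member. In the first condensing cluster all 5 were above their limits in 96 of 98 cells and 109 of 115 cells.

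**Figure D3:**
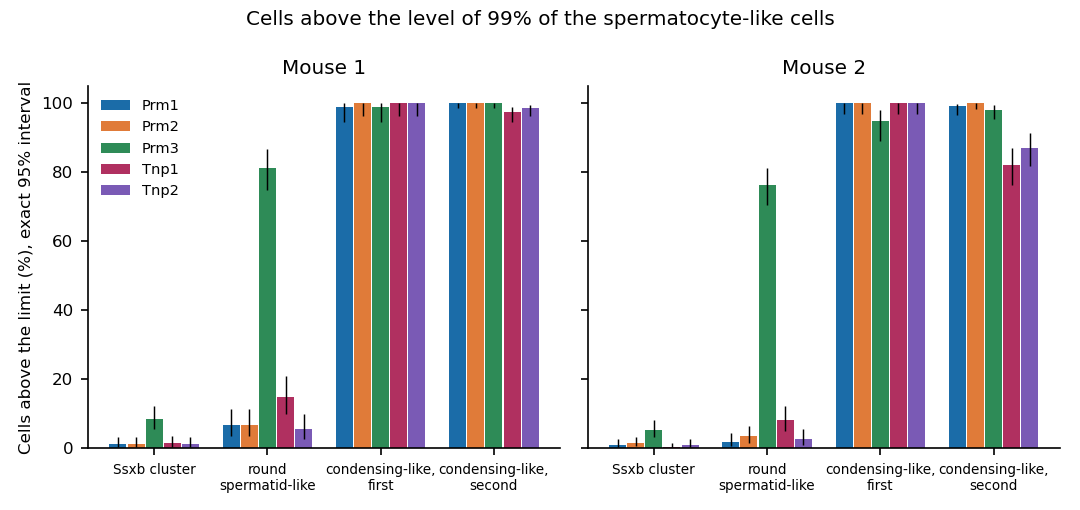
Share of cells (percent, bars from 0) above the 99th percentile of spermatocyte-like cells for each member after thinning to 5000 UMIs, with exact 95% binomial intervals, in the 4 later germ cell clusters of mouse 1 (left) and mouse 2 (right). In round cells Prm3 reaches 81.2% and 76.3% while no other member passes 14.9%, and in the second condensing cluster Tnp1 and Tnp2 are lower in mouse 2.

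Along the ordering of the 2534 germ cells, cut into 20 bins of equal cell number, the start of each rise was taken as the first bin from which the level stayed above 2 times its median in the first 5 bins. A start is thus relative to that median, which was higher for Prm1 than for Prm3. An equal early rise in CPM could pass for Prm3 and not for Prm1. Prm3 started at 45% of the ordering in both mice, Tnp1 at 60% in mouse 1 and 65% in mouse 2, Tnp2 at 65% in both, and Prm1 and Prm2 at 75% in both. With 3 times in place of 2, Prm3 started at 50% and the other 4 at 75%, and without the cells called as doublets Tnp2 started at 75% in both mice, so the position of Tnp1 and Tnp2 before the protamines rests on a small rise. With 1.5 times, Prm1, Prm2 and Tnp2 all started at 60% in mouse 1 and 65% in mouse 2. Tnp1 then started at 60% in both and Prm3 at 40% and 45%. Prm1 was at 3898 and 3678 CPM in the bin at 65% and lower at 70%, so its start at 75% depends on the rule that the level stays above. Between the bins at 70% and 75% Prm1 went from 2938 to 23782 CPM in mouse 1 and from 2459 to 10408 CPM in mouse 2. Prm3 went from 1923 to 2584 CPM and from 1800 to 1956 CPM in the same bins. All 5 passed 50% of their highest bin late, between 80% and 95% of the ordering. The ordering used here takes 50 neighbours for each cell. With 15 neighbours the clusters came in the same sequence but their cells were more mixed, and Prm3 then started at 60% in mouse 1 and 40% in mouse 2 and the other 4 at 65% in both. The neighbour graph was also rebuilt without the called doublets. The second condensing cluster was then placed next to the spermatocytes, at a median of 23.8% of the ordering. Prm3 then started at 90% in mouse 1, and no start could be read for it in mouse 2. For the other 4 none could be read in either mouse. Statements on order along the bins therefore hold for the ordering with 50 neighbours. The cells of each cluster and the ratios within clusters do not use an ordering. The sequence of the clusters does, as it follows their median position, and so do the steps tested between neighbouring clusters.

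**Figure D4:**
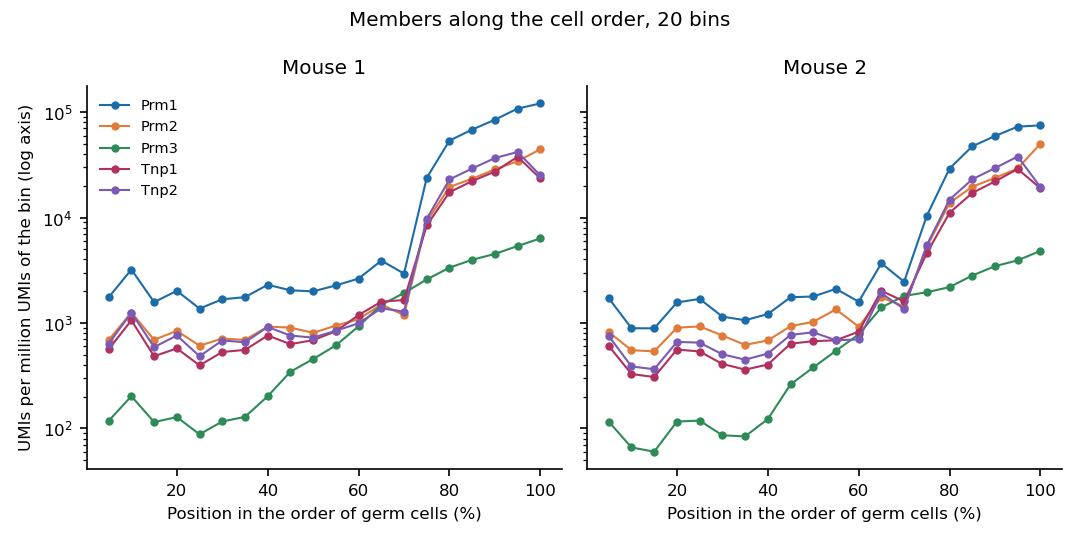
CPM (log axis) of each member in 20 bins along the order of 2534 germ cells with 50 neighbours, in mouse 1 (left) and mouse 2 (right), points at the upper end of each bin. Prm3 stays above 2 times its starting level from 45%, and Prm1 and Prm2 stay above 2 times theirs from 75%. In the last bin Tnp1 and Tnp2 drop while Prm2 rises.

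At the end of the ordering with 50 neighbours the transition proteins and the protamines parted. Tnp1 and Tnp2 were highest in bin 19 in both mice and Prm1, Prm2 and Prm3 in bin 20. Tnp1 went from 37740 to 23454 CPM between these bins in mouse 1 and from 28870 to 18944 CPM in mouse 2, a factor of 0.621 and 0.656. Tnp2 changed by a factor of 0.600 and 0.513. Prm2 went from 34239 to 44428 CPM and from 29200 to 50122 CPM, a factor of 1.30 and 1.72. Prm1 changed by 1.12 and 1.03 and Prm3 by 1.18 and 1.23. With the planned 15 neighbours the direction of Tnp1 and Tnp2 turned. Tnp1 then went from 16379 to 18459 CPM between these bins in mouse 1 and from 14845 to 17361 CPM in mouse 2, and Tnp2 from 18571 to 22745 CPM and from 18515 to 18815 CPM. The drop was therefore seen with 50 neighbours and not with 15, and the last bins of the other orderings were not compared.

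The second condensing cluster held a set of cells with little transition protein mRNA. Tnp1 was not above its limit in 7 of 268 cells of mouse 1 and in 39 of 217 cells of mouse 2, or 2.61% and 18% of its cells. These cells were chosen by Tnp1, so only the other members are described. In mouse 2 their median share of Prm2 was 5.93% of UMIs, against 2.85% in the cells with Tnp1 above its limit. Their median share of Prm1 was 2.88% against 7.03%. Tnp2 was at 0.226% against 3.27%, and Prm3 was at 0.477% against 0.392%. In the 7 cells of mouse 1 Prm2 was at 5.62% against 3.03%, Tnp2 at 0.300% against 3.65%, Prm3 at 0.643% against 0.477% and Prm1 at 9.38% against 9.29%. The cells with Tnp1 not above its limit, which all held some Tnp1 UMIs, were shallower. Their median was 8679 against 11299 UMIs in mouse 1 and 9285 against 12804.5 in mouse 2. They stood at a median of 98.6% and 99.1% of the ordering, and none was called as a doublet.

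Prm2 exceeded Prm1 in 3 cells of mouse 1 and 30 cells of mouse 2 in the second condensing cluster, and in none of the 213 cells of the first. In these cells of mouse 2 Prm2 took 3.87% to 10.3% of UMIs with a median of 6.56%, and Prm1 took 0.282% to 4.87% with a median of 2.09%. In the 3 cells of mouse 1 Prm2 was between 6.89% and 7.98% and Prm1 between 2.49% and 3.42%. Among these cells 1 cell of mouse 2 was above the limit for Tnp1. They were shallower too, with median depths of 8610 (mouse 1) and 8547 UMIs (mouse 2) where the rest of the cluster had 11189 and 12767. Their median mitochondrial share was 0.0435% of UMIs against 0.0185% in mouse 1 and 0.0345% against 0.0186% in mouse 2, and the part of depth and of this share in the result was not tested. The same cells were rich in late mRNAs of the condensing spermatid list: Smcp, a mitochondrial capsule protein of the sperm tail, was at 21759 CPM against 7986 CPM in the other cells of the cluster in mouse 2 and at 19234 against 6904 CPM in mouse 1. Oaz3, the antizyme of spermatids, was at 14109 against 4087 CPM and at 11556 against 3383 CPM. Hmgb4, a chromatin protein of elongating spermatids, went the other way, at 428 against 7227 CPM and at 154 against 8160 CPM. The cells were picked by Prm1 and Prm2 after their values had been seen, and the values are a description with no test.

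**Figure D5:**
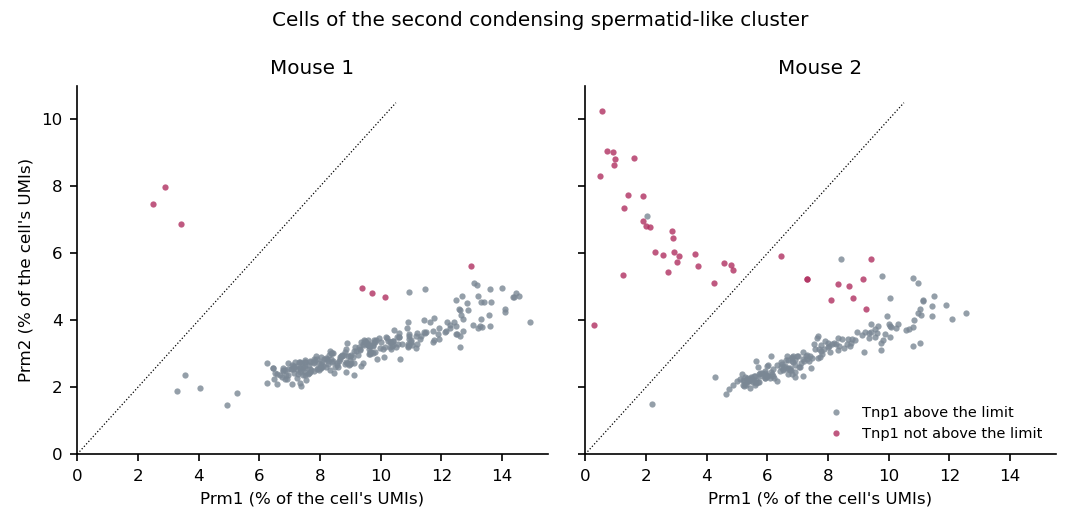
Prm2 against Prm1, each in percent of the UMIs of the cell, for the 268 cells of mouse 1 (left) and 217 cells of mouse 2 (right) of the second condensing cluster. Points in red are cells with Tnp1 not above its limit, and the dotted line marks equal shares. Cells with Tnp1 above its limit have medians of 9.29% and 7.03% for Prm1 and 3.03% and 2.85% for Prm2. The red points of mouse 2, with 2.88% and 5.93%, lie toward low Prm1 and high Prm2.

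The mice differed in Prm1 more than in Prm2. In the second condensing cluster Prm1 was lower in mouse 2 by 0.43 on the log2 scale and Tnp1, Tnp2 and Prm3 by 0.31, 0.30 and 0.28, whereas Prm2 was higher by 0.13. Of 3680 genes with at least 100 UMIs, 9.27% differed by more than 0.5 on this scale in that cluster and 1.09% by more than 2-fold. The ratio of Prm2 to Prm1 was 0.337 in mouse 1 and 0.50 in mouse 2, and among cells with Tnp1 above its limit it was 0.330 and 0.399. Among those cells Prm2 was lower in mouse 2, at 30702 CPM in mouse 1 and 29237 CPM in mouse 2. Tnp2 was at 35654 and 33021 CPM there, Prm3 at 4854 and 3933 CPM and Prm1 at 92972 and 73247 CPM. The direction of Prm2 in the whole cluster thus depends on the cells with little Tnp1, which were more frequent in mouse 2. The ratio of Prm2 to Prm1 was higher in mouse 2 in pachytene or later cells too, at 0.431 and 0.595. The level in those cells is treated as background, so no separate difference between the mice is read from it. With 1 animal against 1 animal there is no test.

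Along the 20 bins, the log2 levels of Prm1, Prm2, Tnp1 and Tnp2 had Pearson coefficients of 0.990 to 0.996 with each other over 40 points, 20 bins in each of 2 mice, and Prm3 had 0.866 to 0.916 with them. Neighbouring bins hold cells of like stage, and all bins of a mouse come from 1 library. In many of the bins Prm1, Prm2, Tnp1 and Tnp2 stood near the level treated as background. A shared background and a common late rise thus enter these coefficients and those of the genes below, and no shared regulation is read from them. Among 6066 genes with at least 1000 UMIs, the gene most like Prm1 was 1700027A15Rik (0.998), followed by Klk1b8 and 1700015G11Rik. The same 1700027A15Rik and 1700015G11Rik were most like Prm2, with Glul, the glutamine synthetase gene, next. For Tnp1 they were 1700042G07Rik, 1700015G11Rik and Tex37, and for Tnp2 1700015G11Rik, 1700042G07Rik and 1700027A15Rik. For Prm3 they were 4930503B20Rik, AI507597 and 1700024P04Rik (0.993 to 0.994), none of which was on the other lists. The ranks depend on the ordering. With 15 neighbours 1700027A15Rik was again most like Prm1, but Cabs1 was most like Prm2, Gm15517 most like Prm3 and 1700034E13Rik most like Tnp1 and Tnp2.

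The annotation places 1700027A15Rik at chr1:72984844-73025507 on the plus strand, across Tnp1 and opposite to it, with 40 exon bases in common. It had 57007 UMIs in all. Its level was 143 and 129 CPM in pachytene or later cells, 326 and 235 CPM in round cells, 2645 and 2120 CPM in the first condensing cluster and 5912 and 5519 CPM in the second. The authors report little mapping antisense to exons, and whether reads were counted by strand is not stated. Counts from the shared exon bases of Tnp1 and this gene were not told apart here. Of the other annotated genes within 10 kb of a member, Gm46563 was not analysed here. It lies opposite to Prm1 at chr16:10797943-10812726 on the plus strand. Another 3 were low. Socs1, next to Tnp2, had 146 UMIs in all cells and Gm11172 had 0. The pseudogene Gm10343, in an intron of the Prm1 transcript of longer span, had 219.

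A list of 34 genes tied to the transcription, storage and translation of these mRNAs and to the histone exchange was tested in the same fit, chosen for its known ties to the members, and all 34 passed the filter on low counts. Of the 8 transcription regulators, 4 rose and 2 fell from pachytene or later cells to the Ssxb cluster, 4 rose and 3 fell from there to round cells, 2 rose and 4 fell from round to first condensing cells, and none rose and 3 fell in the last step. Over all genes tested the shares that rose and fell at these 4 steps were 31.7% and 31.5%, 26% and 20.4%, 23.6% and 21.9%, and 16% and 22.9%. Crem, the activator named above, was at 316 and 331 CPM in pachytene or later cells, at 711 and 806 CPM in round cells and at 66.8 and 98.8 CPM in the second condensing cluster. It fell by 0.72 ± 0.16 (SE) from round to first condensing cells and by 1.37 ± 0.17 in the last step, with edgeR adjusted p of 0.000679 and 9.44e-07. Sox30, a transcription factor needed in round spermatids, fell by 1.17 ± 0.18 in the last step with an adjusted p of 1.40e-05. At the step before, its log2 fold change was 0.64 ± 0.16, but its CPM went from 54.4 to 65.6 in mouse 1 and from 54.6 to 52.9 in mouse 2, and on total UMIs without TMM its adjusted p by edgeR was 0.559.

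Of the 11 genes of mRNA storage and translation, 1 rose and 4 fell from round to first condensing cells and 3 rose and 3 fell in the last step, beside 23.6% and 21.9% and then 16% and 22.9% of all genes. Pabpc1, the poly(A)-binding protein, had 1510 and 1374 CPM in round cells, 754 and 723 CPM in the first condensing cluster and 144 and 108 CPM in the second. It fell by 1.97 ± 0.16 (SE) in the last step, with an edgeR adjusted p of 8.99e-10. Paip2, which binds that protein and represses translation, went from 727 and 661 CPM in round cells to 1301 and 1247 CPM in the second condensing cluster, rising by 1.17 ± 0.14 in the last step with an adjusted p of 3.05e-07. The members and Paip2 rose at the step at which Pabpc1 and Crem fell. Paip2, Pabpc1 and Crem were named for their change at that step, so no link to the members is read from it.

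Of the 15 genes of histone exchange and protamine modification, 6 rose and 0 fell from the Ssxb cluster to round cells, 6 rose and 1 fell from round to first condensing cells, and 2 rose and 2 fell in the last step, beside 26% and 20.4%, 23.6% and 21.9%, and 16% and 22.9% of all genes. H1fnt, a linker histone of spermatids, went from 85.0 and 90.9 CPM in the Ssxb cluster to 615 and 702 CPM in round cells, a rise of 3.16 ± 0.17 (SE) with an edgeR adjusted p of 8.69e-13, and rose in both later steps to 2345 and 2545 CPM. H2al2a, a histone variant of spermatids from a family of near-identical copies, went from 161 and 132 CPM in round cells to 916 and 883 CPM in the first condensing cluster, a rise of 3.15 ± 0.18 with an adjusted p of 1.76e-12, and to 1604 and 1560 CPM in the second. H2afb1, another histone variant of the testis with near-identical copies, had at most 2.98 CPM in any cluster, and its change in the last step was -1.99 ± 1.57 with an adjusted p of 0.351. Over all 34 genes the median log2 fold change at the last 3 steps was -0.03, 0.00 and 0.00, beside -0.06, -0.06 and -0.01 over all genes tested.

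Among the somatic cells 1 stood apart. The only Sertoli-like cell of mouse 2 held 99 Prm2 UMIs and 34 Prm1 UMIs among 12223, so Prm2 was at 8099 CPM (exact 95% Poisson interval 6583 to 9861), against 799 CPM in the 6 Sertoli-like cells of mouse 1. Its Prm1 level of 2782 CPM was near the 2494 CPM of those 6 cells. The gene Prm3 had no UMI in the single Leydig-like cell of mouse 1 among its 9991 UMIs.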

How the data were processed

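Testes of 2 mice were measured as 1 droplet library each. The deposited values are UMI counts per gene and cell: the authors demultiplexed with bcl2fastq 2.17.1.14, counted with Cell Ranger 2.0.0 against repeat-masked GRCm38 with repeat sequences added, downsampled the reads of mouse 2 and kept called cells. The counts were used as deposited. The members, lists and tests were chosen with earlier results of these data known.

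All cells were kept, and scanpy's scrublet called 25 doublets, which were left out only as an alternative. K-means (K = 9, 10 restarts, seed 42) used 10 principal components of 27790 rows, without members and regulators. A cluster was named where at least 3 markers and 60% of a class list had 1.5 times the CPM of all cells. Diffusion pseudotime with 15 neighbours was planned; 50 neighbours are used in the text because 15 mixed the clusters, a choice made after the orderings had been seen. Cells were thinned to 5000 UMIs. The limits at the 99th percentile, the starts of the rise, the late cells and the promoter letters were also chosen after seeing the data. Intervals are exact (Clopper-Pearson or Poisson, 95%) and cover counting error only.

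UMIs were summed for each mouse in the 6 germ cell clusters with at least 30 cells per mouse, and the 12 sums were fitted together with edgeR's quasi-likelihood test after filterByExpr and TMM, with Benjamini-Hochberg adjustment over 14113 genes at 0.05. The SE given with an edgeR log2 fold change was derived from the test. It is the absolute log2 fold change divided by the square root of the F statistic. In simulated data for the round spermatid-like against the Ssxb cluster (12687 genes, 200 changed 4-fold), edgeR recovered 176 with 8 false calls and DESeq2 162 with 6. The simulated sums shared the same gene means, a fixed dispersion and no mouse effect, and no other genes changed. These numbers therefore do not carry over to the error rates in the data. Sums with the same number come from the same animal, and their deviations from the cluster means had correlations of 0.018 to 0.230, so a replicate block was fitted as an alternative. All members were named. Regulators named are, in each of 3 sub-lists, the 2 with the largest fold change and the 2 with the smallest adjusted p in the last step. The genes most like a member are the 3 with the highest Pearson coefficient of log2(CPM + 1) among genes with at least 1000 UMIs. Prm2-rich and Tnp1-poor cells and the marker genes named in them were picked after their values had been seen.

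Tests ran in R 4.3.3 (DESeq2 1.42.0, edgeR 4.0.16) and all else in Python 3.11.15 (scanpy 1.11.5, scikit-learn 1.9.0, matplotlib 3.10.9, pandas 2.3.3, numpy 2.4.6, scipy 1.17.1). Alternatives were other scalings and filters, DESeq2, the block, each mouse alone, no doublets, no thinning and other orderings.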

Additional observations from a re-analysis of the deposited data

How the results depend on the processing

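Over the 5 steps and 5 members, 19 of 25 tests were called higher and 2 lower. Of all genes tested, 16% to 31.7% were higher and 20.4% to 31.5% lower at a step. The number of member tests called higher changed by less than 1.5 times under all alternatives run. The number called lower was 0 without a gene filter, 0 without doublets, 5 on total UMIs without TMM, 5 with library sizes that leave out the members and 4 with DESeq2, all at the step from early to pachytene or later cells, where without doublets Tnp1 was at 0.013 and Tnp2 at 0.046. With the replicate block, the pairing of the sums by mouse, it was 4, and the block changed no call of a member other than Prm1 and Prm3 at that step and Prm1 from the Ssxb cluster to round cells. In the regulator list, over the 5 steps, 44 tests were lower, and 74 on total UMIs without TMM and 69 with library sizes that leave out the members. All genes shifted with the scaling too. Of 14113 genes, 2884 to 4447 were lower at a step in the main fit and 4437 to 5722 on total UMIs without TMM. With library sizes that leave out the members, 4353 to 5078 of 13806 genes were lower. Pabpc1 was at -0.28 from early to pachytene or later cells with DESeq2, and Sox30 from round to first condensing cells was between -0.046 and 0.27 within single mice. With 1 mouse left out no residual degrees of freedom remain, so these are values with no test, and all 25 member differences kept their sign. The cause of these changes was not tested.

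With the members left out of the denominator, levels in the second condensing cluster were 98036 CPM for Prm1, 39696 for Prm2, 5410 for Prm3, 31054 for Tnp1 and 38591 for Tnp2, and the log2 difference of mouse 2 over mouse 1 was -0.49, 0.074, -0.34, -0.37 and -0.36 in that order. Without thinning, 89.2% of pachytene or later cells held a Prm3 UMI and 100% one of Prm1, Prm2, Tnp1 and Tnp2. As a median over cells, the ratio in the second condensing cluster was 0.341 for Tnp1 to Prm1, 0.442 for Tnp2 to Prm1 and 1.33 for Tnp2 to Tnp1. The position at 50% of the highest bin, planned with 15 neighbours, was 20% for each of Prm1, Prm2, Prm3, Tnp1 and Tnp2 with the graph rebuilt without doublets. It was 70% for Prm3 with 10 bins, and for Tnp2 82.5% with 50 or 100 neighbours and 85% along a line through the cluster centroids, beside 67.5%. With the 95th percentile as the limit, Prm3 was above it in 93.9% and 94.2% of round cells and Tnp1 in 48.1% and 36.6%. Depth limits Prm3 in spermatocytes and the 18 cells of the small clusters.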
